A study of Homo sapiens with 3 samples.

Results

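HSD17B12 encodes the ketoreductase of the microsomal fatty acid elongation cycle. Its transcript level is described here together with those of 9 other genes of the cycle in 3 RNA libraries of MDA-MB-231 cells. The 10 genes were chosen by name: HSD17B12, the elongases ELOVL1, ELOVL4, ELOVL5, ELOVL6 and ELOVL7, the dehydratases HACD1, HACD2 and HACD3, and the enoyl reductase TECR. HSD17B12 heads the list because its ratios to control are among the lowest in these same libraries, so those ratios are given as a description. All 10 genes are among the 48162 genes of the deposited files. Of the 10, 9 reached a mean of at least 1 FPKM (fragments per transcript length and library size) over the 3 libraries and so belong to the 12649 genes analysed. ELOVL4 was listed at 0 in every library.

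MDA-MB-231 is an established human breast cancer line that lacks oestrogen and progesterone receptors and has a mesenchymal look. The study set a depletion of Geminin together with FoxO3, and a depletion of FoxO3 alone, against a control, with 1 library per group. Every culture grew in DMEM with 10% serum, was exposed to lentivirus for 24 h and was collected 72 h after the medium change, and 3 ug of Trizol RNA went into each TruSeq library. FoxO3 is a forkhead transcription factor, and Geminin (GMNN) restrains the licensing of replication origins. The sources used here give neither the depleting sequences nor the vector of the control, and the number at the end of the titles of both depleted libraries is not explained. With 1 line and 1 library per group, no difference below could be checked in replicates, and p-values are not given.

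Fatty acids longer than those that fatty acid synthase releases are made in the endoplasmic reticulum, as coenzyme A esters, by a cycle of reactions that adds a pair of carbons per turn. An elongase of the ELOVL family joins malonyl-CoA to the acyl-CoA, HSD17B12 reduces the resulting ketone, an HACD enzyme removes water, and TECR reduces the remaining double bond. The ELOVL enzymes differ in the chains they accept, whereas every chain passes through the same ketoreductase. The products feed phospholipids, sphingolipids and stored triacylglycerol.

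Promoter windows of the members, from 250 bases before to 50 bases after each start site, were read from RefSeq on GRCh38.p14. The table holds 12 windows for 9 members, all but HSD17B12. The windows of ELOVL5 and ELOVL6 are shown because these genes had the highest and the lowest ratios to control among the 8 other members analysed. Both lie on the minus strand and are written 5′ to 3′ along the gene. The ELOVL5 window is chr6:53348901-53349200 and the ELOVL6 window is chr4:110198566-110198865. Capitals mark matches on either strand to 3 short motifs. The forkhead core was searched as TGTTTAC, which reads GTAAACA on the opposite strand of the window. The CCAAT box was searched by its own 5 letters, which read ATTGG on the opposite strand. The E-box was searched as the palindrome CACGTG.
ELOVL5 promoter: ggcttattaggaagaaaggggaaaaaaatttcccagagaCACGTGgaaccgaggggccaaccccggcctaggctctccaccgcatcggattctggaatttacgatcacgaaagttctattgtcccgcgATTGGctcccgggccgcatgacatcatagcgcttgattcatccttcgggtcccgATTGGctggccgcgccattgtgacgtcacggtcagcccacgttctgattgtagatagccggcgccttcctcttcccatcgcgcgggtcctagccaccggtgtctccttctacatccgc
ELOVL6 promoter: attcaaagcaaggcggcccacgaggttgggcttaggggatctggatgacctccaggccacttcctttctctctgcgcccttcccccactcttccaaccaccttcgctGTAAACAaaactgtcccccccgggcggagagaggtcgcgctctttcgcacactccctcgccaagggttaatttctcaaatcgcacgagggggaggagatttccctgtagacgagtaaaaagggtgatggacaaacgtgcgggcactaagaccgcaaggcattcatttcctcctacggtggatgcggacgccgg
The forkhead core was found in the window of 1 member, ELOVL6, at position -143 from the start site, which is 1 of the 12 member windows, and 3.42% of all 35116 windows in the table hold it. A CCAAT box was found for 5 members (ELOVL1, ELOVL4, ELOVL5, HACD3 and TECR), in 6 of the 12 member windows, against 34.6% of all windows. The windows of TECR overlap and hold the same CCAAT matches, so TECR counts more than once among the 6. An E-box was found for 2 members, ELOVL5 at -211 and ELOVL4 at -46, in 2 of the 12 windows, against 7.26% of all windows. Within a window no matches overlapped, and a match is a description of letters, not a binding site.

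The FPKM values rest on 12267332 reads in the co-depletion, 10760613 in the FoxO3 depletion and 14507410 in the control, totals recovered from the values themselves. FOXO3 (ENSG00000118689) had 2.94 FPKM in the co-depletion, 2.79 in the FoxO3 depletion and 12.2 in the control. GMNN (ENSG00000112312) had 37.0 FPKM in the co-depletion, against 112.2 in the FoxO3 depletion and 112.3 in the control. Both genes were thus low in the libraries labelled for their depletion. All 6 genes listed as markers of this line (VIM, CD44, EGFR, MET, AXL and CAV1) were at 41.3 FPKM or more in every library. MET, a receptor tyrosine kinase, was lower in both depleted libraries, with 45.1 FPKM in the co-depletion, 41.3 in the FoxO3 depletion and 133.6 in the control, while CD44 had 904 FPKM in the co-depletion, 935 in the FoxO3 depletion and 631 in the control. Of the 5 luminal genes ESR1, PGR and FOXA1 were at 0.12 FPKM or less, GATA3 was at 8.78 to 12.6 FPKM and KRT19 at 544 to 571 FPKM over the 3 libraries. The endothelial markers summed to 5.83 FPKM in the co-depletion, 7.13 in the FoxO3 depletion and 5.70 in the control, mostly KDR. Summed levels of the 5 adipocyte markers were 0.043 FPKM in the co-depletion, 0.049 in the FoxO3 depletion and 0.11 in the control, with ADIPOQ, LEP and FABP4 at 0, which puts transcripts of fat cells near 0. Of the fibroblast list 2 of 6 genes were analysed, COL1A1 and COL1A2, and the list summed to 38.3 FPKM in the co-depletion, 39.7 in the FoxO3 depletion and 24.2 in the control, with PDGFRA and DCN at 0 in both depleted libraries. The part of these differences in the results below was not tested.

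HSD17B12 (ENSG00000149084, chromosome 11) was low in both depleted libraries. It had 26.4 FPKM in the co-depletion (338 reads), 20.8 in the FoxO3 depletion (233 reads) and 95.4 in the control (1442 reads). The counting intervals of the levels, at 95% and exact for Poisson counts, were 23.7 to 29.4 FPKM in the co-depletion, 18.2 to 23.6 in the FoxO3 depletion and 90.5 to 100.4 in the control, so the control stood clear of both depleted libraries. Relative to control the level was 27.7% in the co-depletion (24.6% to 31.2%) and 21.8% in the FoxO3 depletion (18.9% to 25.0%). These intervals, and all others here, cover counting error only and compare libraries, not conditions. Both comparisons use the same control library. In RNA from whole cultures, fewer cells with the transcript and less of it per cell cannot be told apart.

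On the scale used for all genes, log2 of FPKM + 1 in one library over FPKM + 1 in the other, HSD17B12 stood at -1.81 in the co-depletion over control and at -2.15 in the FoxO3 depletion over control. Of the other analysed genes 3 had a lower ratio in the co-depletion and 4 in the FoxO3 depletion. Within each library, 60.3% of analysed genes lay below HSD17B12 in the co-depletion and 54.8% in the FoxO3 depletion, against 87.8% in the control. It was thus a gene of the upper range in the control and of the middle range in the depleted libraries. The annotation lists 14 transcripts of HSD17B12, of 403 to 4292 bases, and gene-level values do not show which of them differed.

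**Figure D1:**
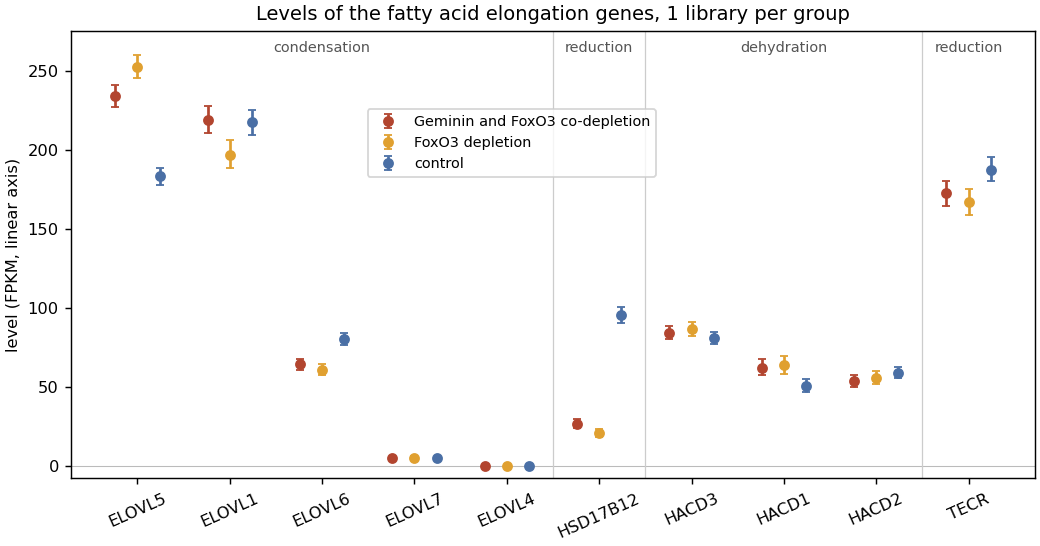
Level of each elongation gene in FPKM on a linear axis, grouped by the reaction it catalyses, for the co-depletion (red), FoxO3 depletion (yellow) and control (blue) libraries, with exact 95% Poisson counting intervals and 1 library per group. HSD17B12 lies at 26.4 FPKM in the co-depletion, 20.8 in the FoxO3 depletion and 95.4 in the control, while each dehydratase and TECR, which act after it in the cycle, keep their 3 libraries within 1.5-fold, and ELOVL4 is at 0.

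The elongases that start the cycle did not share the low level of HSD17B12. ELOVL5 (ENSG00000012660), which lengthens polyunsaturated chains, had 234 FPKM in the co-depletion, 253 in the FoxO3 depletion and 183 in the control. Its FPKM was 1.28 times control in the co-depletion (1.23 to 1.33) and 1.38 times control in the FoxO3 depletion (1.32 to 1.44), so it was the member with the highest ratio in both. ELOVL6 (ENSG00000170522), which turns palmitate into stearate, had 64.1 FPKM in the co-depletion, 60.9 in the FoxO3 depletion and 80.4 in the control. That is 0.80 times control (0.74 to 0.86) in the co-depletion and 0.76 times control (0.70 to 0.82) in the FoxO3 depletion, the lowest ratios after HSD17B12. ELOVL5 and ELOVL6 thus lay on opposite sides of the control, each by more than counting error and each by less than 1.5-fold.

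ELOVL1 (ENSG00000066322), which makes the very long saturated and monounsaturated chains found in sphingolipids, had 219 FPKM in the co-depletion, 197 in the FoxO3 depletion and 217 in the control. Its ratio to control was 1.01 (0.95 to 1.06) in the co-depletion and 0.91 (0.86 to 0.96) in the FoxO3 depletion. At the deposited scale counting error thus separates it from the control in the FoxO3 depletion only. When libraries were rescaled by the median ratio of genes, its log2 ratio moved from -0.14 to -0.02 in the FoxO3 depletion. In the co-depletion it moved from 0.01 to 0.09, so this separation depends on the scaling. ELOVL7 (ENSG00000164181), an elongase of long saturated chains, was the lowest member above 0, with 4.96 FPKM in the co-depletion (144 reads), 5.14 in the FoxO3 depletion (131 reads) and 4.86 in the control (167 reads). The intervals of its ratios reached from 0.81 to 1.28 in the co-depletion and from 0.83 to 1.34 in the FoxO3 depletion, both including 1. ELOVL4 (ENSG00000118402), known for the ultra-long chains of retina, skin and brain, had no reads; 3 reads, the limit that a count of 0 allows, would come to 0.080 FPKM in the co-depletion, 0.092 in the FoxO3 depletion and 0.068 in the control.

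Among the 6 listed elongases, ELOVL5 made up 44.8% of their summed FPKM in the co-depletion and 49.0% in the FoxO3 depletion, against 37.7% in the control. ELOVL1 made up 42.0% in the co-depletion, 38.2% in the FoxO3 depletion and 44.7% in the control, while ELOVL6 made up 12.3% in the co-depletion, 11.8% in the FoxO3 depletion and 16.5% in the control. By FPKM, ELOVL5 was thus ahead of ELOVL1 in both depleted libraries and behind it in the control. Which gene leads within a library depends on the transcript lengths used. The sum itself was 522 FPKM in the co-depletion, 516 in the FoxO3 depletion and 486 in the control.

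At the deposited scale the dehydratases, which act directly after HSD17B12, stayed within 1.5-fold of their control levels. HACD3 (ENSG00000074696), also known as a partner of the small GTPase Rac1, had 84.0 FPKM in the co-depletion, 86.6 in the FoxO3 depletion and 80.8 in the control, with ratios to control of 1.04 (0.97 to 1.11) in the co-depletion and 1.07 (1.0002 to 1.15) in the FoxO3 depletion. HACD1 (ENSG00000165996), best known from muscle, had 62.2 FPKM in the co-depletion, 63.8 in the FoxO3 depletion and 50.5 in the control, with ratios of 1.23 (1.09 to 1.38) in the co-depletion and 1.26 (1.12 to 1.42) in the FoxO3 depletion. HACD2 (ENSG00000206527), which is widely expressed, had 53.5 FPKM in the co-depletion, 55.7 in the FoxO3 depletion and 58.8 in the control, with ratios of 0.91 (0.83 to 0.996) in the co-depletion and 0.95 (0.86 to 1.04) in the FoxO3 depletion. HACD1 therefore lay above the control by more than counting error in both depleted libraries. The intervals of HACD3 in the co-depletion and of HACD2 in the FoxO3 depletion included 1. Their summed FPKM was 199.8 in the co-depletion, 206 in the FoxO3 depletion and 190.2 in the control.

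TECR (ENSG00000099797), which closes each turn, had 172 FPKM in the co-depletion, 167 in the FoxO3 depletion and 187 in the control. Its ratio to control was 0.92 (0.86 to 0.98) in the co-depletion and 0.89 (0.83 to 0.95) in the FoxO3 depletion. At the deposited scale it was thus slightly low in both by counting error. When libraries were rescaled by the median ratio of genes, its log2 ratio moved from -0.17 to -0.05 in the FoxO3 depletion. In the co-depletion it went from -0.12 to -0.04, so these small differences depend on the scaling. HSD17B12 came to 15.3% of the FPKM of TECR in the co-depletion and 12.5% in the FoxO3 depletion, against 50.9% in the control. Against the summed dehydratases it came to 13.2% in the co-depletion, 10.1% in the FoxO3 depletion and 50.1% in the control. Both sides of these shares are FPKM, so the shares depend on the transcript lengths used for each gene.

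**Figure D2:**
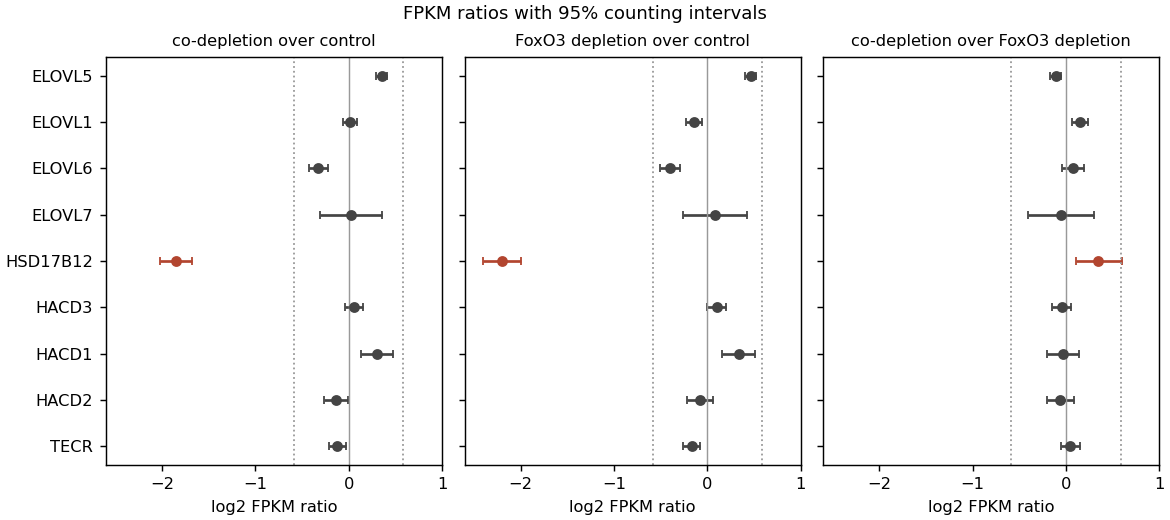
Log2 FPKM ratio of the 9 analysed elongation genes, with exact 95% counting intervals, for the co-depletion over control, the FoxO3 depletion over control and the co-depletion over the FoxO3 depletion; dotted lines mark 1.5-fold. HSD17B12 (red) lies far left of the dotted line in both comparisons with the control, at 27.7% of control in the co-depletion and 21.8% in the FoxO3 depletion, and the 8 other genes lie inside the lines in all 3 panels.

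Calls rest on size, with a threshold of 1.5-fold on the log2 scale above. In the co-depletion over control 1 of the 9 analysed members, HSD17B12, was called lower and 0 were called higher; of all analysed genes 12.3% were called lower and 4.02% higher. In the FoxO3 depletion over control the counts were again 1 lower and 0 higher, beside 16.7% and 4% of all analysed genes. Since HSD17B12 was chosen from these comparisons, its call shows nothing about the list. The 8 other members ranged from -0.32 (ELOVL6) to 0.35 (ELOVL5) on the log2 scale in the co-depletion, and from -0.39 (ELOVL6) to 0.46 (ELOVL5) in the FoxO3 depletion, so ELOVL5 in the FoxO3 depletion came nearest to the size rule from inside. The median of the 9 members was 0.01 in the co-depletion and -0.08 in the FoxO3 depletion, beside -0.06 and -0.07 for all analysed genes in the same comparisons. After the subtraction for GC content described further on, the member median was 0.17 in the co-depletion and 0.23 in the FoxO3 depletion, beside 0 for all genes. Members lay on both sides of the control, so a median says little about them.

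Adding the depletion of Geminin to that of FoxO3 was read from the co-depletion over the FoxO3 depletion. None of the 9 members was called, with 0 lower and 0 higher, beside 0.617% and 1.35% of all analysed genes in these directions. HSD17B12 had 26.4 FPKM in the co-depletion and 20.8 in the FoxO3 depletion, a ratio of 1.27 (1.07 to 1.51) and 0.33 on the log2 scale, and 984 analysed genes had a higher ratio. ELOVL1 was also higher in the co-depletion by more than counting error, at 1.11 (1.05 to 1.18), and ELOVL5 was lower, at 0.93 (0.89 to 0.97). For the other 6 members the interval included 1. Culture-to-culture variation, which these libraries cannot measure, is not in these intervals.

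The order of the members also differed between libraries. In the control HSD17B12 ranked 4 of 10 by FPKM, after ELOVL1, TECR and ELOVL5 and ahead of HACD3 and ELOVL6. In both depleted libraries it ranked 8, behind every member except ELOVL7 and ELOVL4. Its neighbours in the order were clear of it by counting error in each library: HACD2 at 53.5 FPKM above it in the co-depletion and at 55.7 in the FoxO3 depletion, and HACD3 at 80.8 below it in the control. An order between genes also depends on the transcript length used for each, which counting error does not cover. Some neighbours elsewhere in the order were not separated, such as HACD3 and ELOVL6 in the control, at 80.8 and 80.4 FPKM, and ELOVL6 and HACD1 in the co-depletion, at 64.1 and 62.2.

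GC content moved with the ratios across all genes, and HSD17B12 lies in the range where ratios were low. Its longest annotated transcript has 38.0% GC, against a median of 48.1% over the analysed genes, and 8.51% of these genes have less. Within 1 percentage point of its GC content lie 880 genes, HSD17B12 included, whose median log2 ratio was -0.47 in the co-depletion and -0.58 in the FoxO3 depletion. Of these 880 genes 37.5% were called lower in the co-depletion and 49.5% in the FoxO3 depletion, and HSD17B12 had the lowest ratio of them in both. When the median ratio of genes of like GC content was subtracted, in 50 bins, HSD17B12 came to -1.35 in the co-depletion and -1.57 in the FoxO3 depletion, with 29 and 14 analysed genes lower. It was still called lower in both.

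By the longest transcript, most of the other members are also poor in GC, between 36.4% (ELOVL7) and 42.3% (HACD3), while TECR has 48.5% and ELOVL1 55.4%. Averaged over transcripts, GC content is 40.8% for ELOVL7, 43.4% for HACD3, 60.6% for TECR, 55.2% for ELOVL1 and 43.7% for HSD17B12. After the subtraction HACD1 stood at 0.60 in the co-depletion and 0.64 in the FoxO3 depletion, and ELOVL5 at 0.59 in the co-depletion and 0.70 in the FoxO3 depletion, all past 1.5-fold. ELOVL7 stood at 0.53 in the co-depletion and 0.74 in the FoxO3 depletion, past 1.5-fold in the FoxO3 depletion alone. In the co-depletion 1 member was thus called lower and 2 higher, beside 5.57% and 4.96% of all analysed genes. In the FoxO3 depletion 1 was called lower and 3 higher, beside 8.74% and 5.94%. With GC content averaged over transcripts, chosen after seeing the data, 1 member, HACD1, was called higher in the FoxO3 depletion, beside 5.83% of all analysed genes, and 0 in the co-depletion. HACD2 turned from -0.14 to 0.17 in the co-depletion and from -0.08 to 0.23 in the FoxO3 depletion, so no direction is given for it, and ELOVL1 turned from 0.01 to -0.09 in the co-depletion. ELOVL6 came to -0.05 in the co-depletion and -0.08 in the FoxO3 depletion, close to genes of its own GC content. HSD17B12 was called lower with and without the subtraction, while the calls of HACD1, ELOVL5 and ELOVL7 depended on it. With GC content averaged over transcripts HSD17B12 came to -1.59 in the co-depletion and -1.86 in the FoxO3 depletion.

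**Figure D3:**
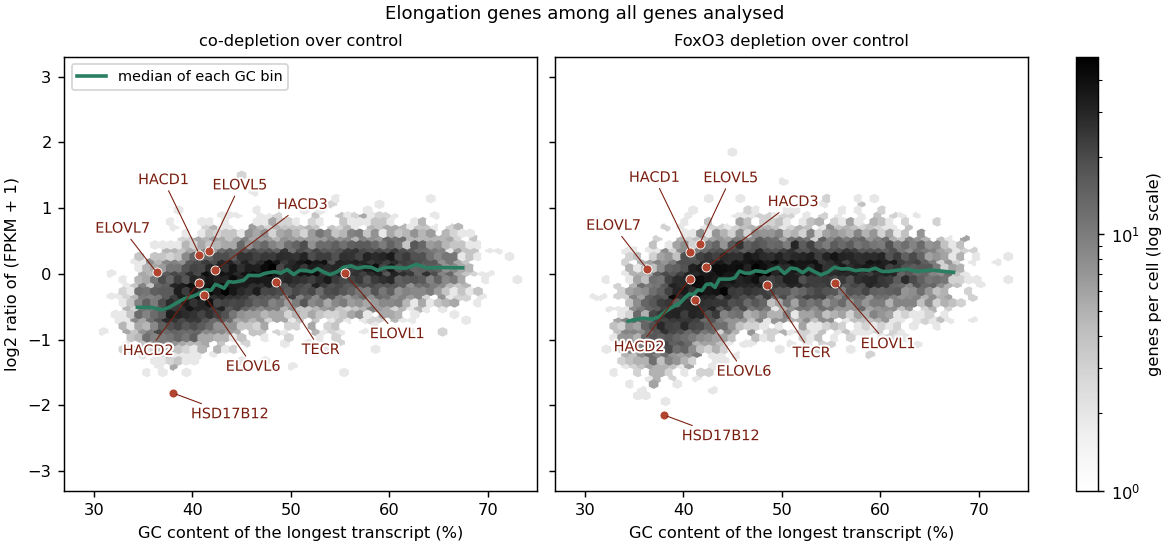
Log2 ratio of (FPKM + 1) against the GC content of the longest transcript for the 12649 analysed genes (grey, darker where more genes fall, log colour scale), with the median of each of 50 GC bins (green) and the 9 analysed elongation genes (red), in the co-depletion over control and the FoxO3 depletion over control. The green line falls towards low GC content, HACD1, ELOVL5 and ELOVL7 lie above it, and HSD17B12, at 38.0% GC, lies below every gene near it, at -1.81 in the co-depletion and -2.15 in the FoxO3 depletion.

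The genes next to HSD17B12 on chromosome 11 did not share its ratios. On one side lies TTC17, with 46.9 FPKM in the co-depletion, 47.5 in the FoxO3 depletion and 46.8 in the control. Next to it is API5, an apoptosis inhibitor, with 73.8 FPKM in the co-depletion, 75.3 in the FoxO3 depletion and 94.4 in the control. On the other side lies ALKBH3, a DNA and RNA repair dioxygenase, with 22.5 FPKM in the co-depletion, 24.6 in the FoxO3 depletion and 25.1 in the control. Beyond it is C11orf96, with 7 reads in each depleted library and 3 in the control. API5 was the lowest of these in both comparisons, at -0.35 on the log2 scale in the co-depletion and -0.32 in the FoxO3 depletion, and none of the analysed neighbours was called. The antisense gene AC087521.2 shares 948 exon bases with HSD17B12, or 12.1% of its exon bases, and was at 0.083 FPKM in the co-depletion, 0.094 in the FoxO3 depletion and 0.21 in the control. The transcript AC068205.2, which is not used here, shares 490 exon bases with HSD17B12 on the same strand. The sources used here do not say whether counting used strand, so reads in shared bases are uncertain. The same holds for TECR, which shares 211 exon bases, 3.57% of its own, with DNAJB1 on the other strand, at 330.0 FPKM in the co-depletion, 353 in the FoxO3 depletion and 327 in the control.

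The genes whose pattern was most like that of HSD17B12 were sought among the 9824 genes with a mean of at least 5 FPKM, by the distance between their pairs of log2 ratios to control over the 3 libraries. The 6 nearest were FAM111B, CENPF, FRYL, MBNL1, SVIP and MRPL10, at distances of 0.06 to 0.28 log2 units. FAM111B had 7.97 FPKM in the co-depletion, 6.21 in the FoxO3 depletion and 29.8 in the control. CENPF, a kinetochore protein, had 36.4 FPKM in the co-depletion, 30.01 in the FoxO3 depletion and 138 in the control. MRPL10, a mitochondrial ribosomal protein, had 7.50 FPKM in the co-depletion, 7.05 in the FoxO3 depletion and 28.3 in the control and, unlike the other 5, a GC content of 51.8%, above the median. Likeness over 3 libraries that share a control says nothing about shared function.

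The paralogs outside the 10 members were at or near 0. ELOVL2 had 0.04 FPKM in the co-depletion, 0 in the FoxO3 depletion and 0.02 in the control. ELOVL3 had 0.24 FPKM in the co-depletion, 0.27 in the FoxO3 depletion and 0.50 in the control. ELOVL3, the highest of these paralogs, had 10 reads in the control. HACD4 had 0.03 FPKM in the co-depletion, 0 in the FoxO3 depletion and 0 in the control, and TECRL had 0 FPKM in the co-depletion, 0 in the FoxO3 depletion and 0.05 in the control. None of the 4 reached a mean of 1 FPKM, as the 9 analysed members did.

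HSD17B12 belongs by sequence to the 17-beta-hydroxysteroid dehydrogenases, a family of mostly short-chain dehydrogenases with varied substrates, and 7 of 14 other listed genes of this kind were analysed. In the co-depletion 4 were called lower (HSD17B4, HSD17B7, HSD17B8 and CBR4, the first pair named after their values were seen) and 1 higher, with a median log2 ratio of -0.59, and in the FoxO3 depletion 0 lower and 1 higher, with a median of -0.41. Among all analysed genes 12.3% were lower and 4.02% higher in the co-depletion, and 16.7% and 4% in the FoxO3 depletion. HSD17B8, a subunit of the mitochondrial ketoacyl reductase, had 4.91 FPKM in the co-depletion, 5.99 in the FoxO3 depletion and 8.31 in the control, and its partner CBR4 had 10.2 FPKM in the co-depletion, 11.1 in the FoxO3 depletion and 16.4 in the control. HSD17B10, a mitochondrial dehydrogenase and RNase P subunit, ran the other way, with 141 FPKM in the co-depletion, 134 in the FoxO3 depletion and 88.8 in the control. After the GC subtraction 1 (HSD17B8, in the co-depletion) was called lower and 0 higher, so most of the calls in this family depended on it, beside 5.57% lower among all analysed genes in that comparison. None of the 7 was as low as HSD17B12.

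Fatty acid synthase supplies chains to the cycle. Of the 7 analysed genes listed under fatty acid synthesis, 0 were called in either direction in either comparison with control. Their median log2 ratio was 0.15 in both, and ACACA of this list was not analysed. The shares of all analysed genes were 12.3% lower and 4.02% higher in the co-depletion, and 16.7% and 4% in the FoxO3 depletion. FASN, the synthase that makes palmitate, had 293 FPKM in the co-depletion, 318 in the FoxO3 depletion and 234 in the control, with ratios of 1.25 (1.21 to 1.29) in the co-depletion and 1.36 (1.32 to 1.41) in the FoxO3 depletion. MID1IP1, an activator of acetyl-CoA carboxylase, had 47.8 FPKM in the co-depletion, 50.5 in the FoxO3 depletion and 38.6 in the control. ACAT2, a cytosolic thiolase, had 25.5 FPKM in the co-depletion, 28.1 in the FoxO3 depletion and 22.7 in the control. All 3 lay above the control by less than 1.5-fold, also after the GC subtraction.

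Desaturases work on the same acyl chains as the elongases. Of 10 analysed genes of desaturation and its electron transfer 0 were called lower and 1, FADS3, higher in each comparison with control. The medians were 0.01 in the co-depletion and 0.09 in the FoxO3 depletion. The shares of all analysed genes were 12.3% lower and 4.02% higher in the co-depletion, and 16.7% and 4% in the FoxO3 depletion. FADS3, a sphingoid base desaturase, had 47.1 FPKM in the co-depletion, 48.0 in the FoxO3 depletion and 28.6 in the control. FADS1, which alternates with ELOVL5 in making polyunsaturated chains, had 138 FPKM in the co-depletion, 167 in the FoxO3 depletion and 181 in the control. SCD5, a stearoyl desaturase, had 11.1 FPKM in the co-depletion, 13.4 in the FoxO3 depletion and 15.7 in the control. At the deposited scale FADS1 and ELOVL5 thus lay on opposite sides of the control. In the FoxO3 depletion FADS1 was at 0.92 times control, close to the median ratio of genes, also 0.92. Its side of the control in that library therefore depends on the scaling. After the GC subtraction FADS3 was at 0.58 in the co-depletion, just short of 1.5-fold, and at 0.65 in the FoxO3 depletion. CYB5A, an electron carrier named after its values were seen, was then past 1.5-fold in both, at 0.70 in the co-depletion and 0.78 in the FoxO3 depletion. With that subtraction 4.96% of all analysed genes were called higher in the co-depletion and 5.94% in the FoxO3 depletion.

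Of 15 analysed genes of acyl-CoA activation and handling 3 were called lower in the co-depletion and 4 in the FoxO3 depletion, with 0 higher and medians of -0.01 in the co-depletion and -0.02 in the FoxO3 depletion. The shares of all analysed genes called lower were 12.3% in the co-depletion and 16.7% in the FoxO3 depletion. The 4 were ACSL3, ACSL4, SLC27A1 and, at -0.66 and named after its value was seen, ACBD3. ACSL4, which prefers arachidonate, had 62.4 FPKM in the co-depletion, 48.5 in the FoxO3 depletion and 115.7 in the control. ACSL3, an acyl-CoA synthetase of lipid droplets, had 55.8 FPKM in the co-depletion, 62.6 in the FoxO3 depletion and 95.7 in the control. The transporter SLC27A1 had 11.9 FPKM in the co-depletion, 10.6 in the FoxO3 depletion and 18.9 in the control. After the GC subtraction SLC27A1 was lower in both (-0.72 in the co-depletion, -0.86 in the FoxO3 depletion), ACSL4 at -0.59 in the FoxO3 depletion only, and ACSL3 in neither. With that subtraction 5.57% of all analysed genes were called lower in the co-depletion and 8.74% in the FoxO3 depletion.

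Sphingolipids take up many of the very long chains. Of 15 analysed genes of their synthesis 2 were called lower, SGMS2 and SPTLC3, and 0 higher in each comparison with control. The medians were -0.08 in the co-depletion and -0.10 in the FoxO3 depletion. Of all analysed genes 12.3% were called lower and 4.02% higher in the co-depletion, and 16.7% and 4% in the FoxO3 depletion. The count of the list is thus near that of all genes. SGMS2, a sphingomyelin synthase of the plasma membrane, had 25.0 FPKM in the co-depletion, 24.1 in the FoxO3 depletion and 63.6 in the control. SPTLC3, a subunit of the serine palmitoyltransferase, had 20.1 FPKM in the co-depletion, 21.6 in the FoxO3 depletion and 39.3 in the control. ORMDL3, an inhibitor of that enzyme, had 40.8 FPKM in the co-depletion, 47.6 in the FoxO3 depletion and 32.1 in the control. SGMS2 stayed past 1.5-fold after the GC subtraction in both, at -0.76 in the co-depletion and -0.68 in the FoxO3 depletion, and SPTLC3 in the co-depletion, at -0.60. ORMDL1, named after its values were seen, was then called higher in the FoxO3 depletion, at 0.69. With that subtraction 5.57% of all analysed genes were lower and 4.96% higher in the co-depletion, and 8.74% and 5.94% in the FoxO3 depletion.

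**Figure D4:**
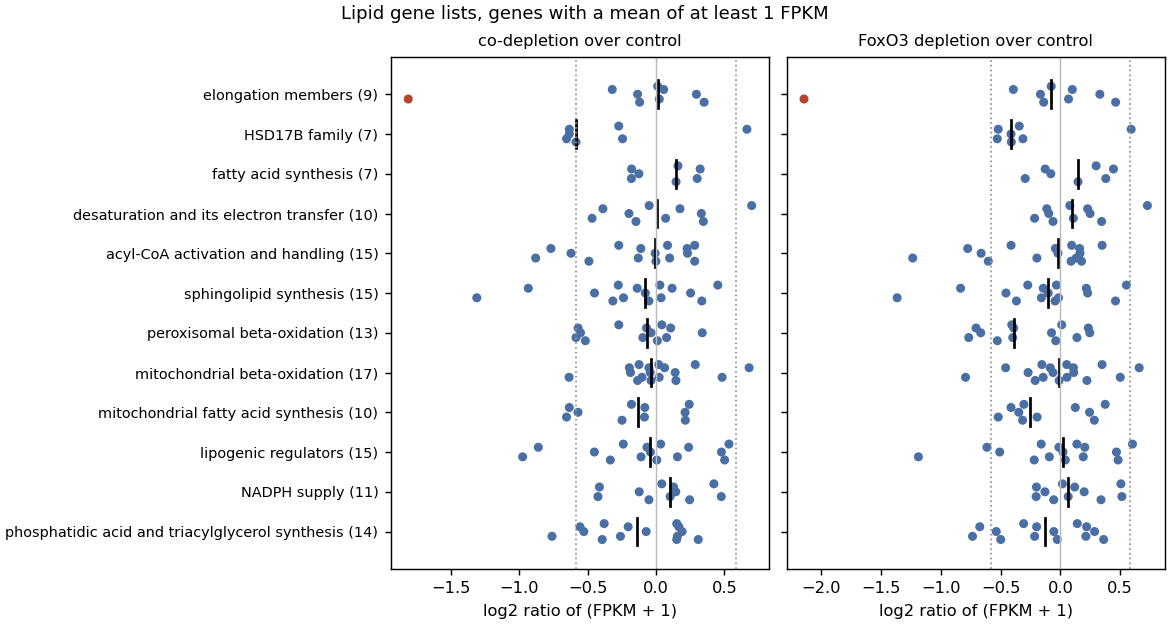
Log2 ratio of (FPKM + 1) for every analysed gene of the elongation cycle and of 11 related lipid gene lists, in the co-depletion over control and the FoxO3 depletion over control, with the number of analysed genes in brackets, a black bar at each median and dotted lines at 1.5-fold. HSD17B12 (red) lies left of every other point in both panels, and the next lowest is SGMS2, at -1.31 in the co-depletion and -1.37 in the FoxO3 depletion.

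In the co-depletion over the FoxO3 depletion 0 genes of these lists were called in either direction, beside 0.617% lower and 1.35% higher among all analysed genes. HSD17B12 was the lowest gene of the 10 members and of the 11 lists in both comparisons with control, a position that its choice fixes in part.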

How the data were processed

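One FPKM file per library was deposited, each listing the same 48162 Ensembl genes. Per the submitters' processing notes the reads were aligned with TopHat2 2.0.9; the sources used here give no counter, build, annotation or strand setting. The FPKM values of the authors were used as deposited. GENCODE 29, which matched 45342 genes, gave names, lengths and GC content, and coordinates are given only for RefSeq promoter windows. Reads were recovered as the smallest whole numbers, up to 60000 and within 0.0001 of a whole read, that fit a gene's FPKM in all libraries at 1 length, and this gave whole reads for 20587 of 20591 genes above 0 in at least 2 libraries. Where all true reads of a gene share a divisor, the recovered ones are too few and its intervals too wide. Ratios are log2 of FPKM + 1, which understates differences of low genes. Named genes with at least 1 FPKM on average were analysed, and calls were by size, at 1.5-fold. Each FPKM ratio has an exact 95% Clopper-Pearson interval from the reads of 2 libraries. The procedure was tested on simulated counts. Groups came from the titles read with the series' design text.

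The members and the lists were chosen with earlier results of these data known. All 10 members were named. From each list up to 3 genes with the largest absolute log2 ratio to control in either depletion were named. The 6 genes nearest to HSD17B12 in their ratios and its neighbours in gene order were named next. ACACA and the endothelial marker PECAM1 are not analysed here. Alternatives were pseudocounts of 0.1 and 0.5, a minimum mean of 5 FPKM or none, rescaling by the median ratio or to TPM, a 2-fold rule and a GC subtraction in 50 bins. GC content averaged over transcripts was added after seeing the data. The work used Python 3.11.15, pandas 2.3.3, SciPy 1.17.1 and matplotlib 3.10.9.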

Additional observations from a re-analysis of the deposited data

How the results depend on the processing

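No paired analysis was possible because each group has 1 library. The count of lower members was 1 in both comparisons with control under every alternative tried. That member was always HSD17B12, which was chosen from these comparisons, so the steady count shows nothing about the list. Over the alternatives the share of all genes called lower ran from 2.25% to 15.7% in the co-depletion over control. In the FoxO3 depletion over control it ran from 5.23% to 20.2%. Higher members numbered 0 except after the GC subtraction, with 2 in the co-depletion over control (HACD1 and ELOVL5, beside 4.96% of all analysed genes) and 3 in the FoxO3 depletion over control (HACD1, ELOVL5 and ELOVL7, beside 5.94%). With GC content averaged over transcripts, chosen after seeing the data, the count in the FoxO3 depletion over control was 1 (HACD1). HSD17B12 ranged from -1.86 to -1.35 in the co-depletion over control and from -2.20 to -1.57 in the FoxO3 depletion over control. It ranged from 0.21 to 0.35 in the co-depletion over the FoxO3 depletion. Of 213 member values under an alternative, 38 moved by more than their counting interval, 31 of them under a GC subtraction and 7 under rescaling by the median ratio, which is -0.08 on the log2 scale in the co-depletion over control and -0.12 in the FoxO3 depletion over control. ELOVL7 falls below a minimum mean of 5 FPKM. No called value changed sign. Depth limits ELOVL7, which had 131 to 167 reads, and ELOVL4, which had none.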

Other observations

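Lists further from the elongation cycle gave the following values, beside 12.3% lower and 4.02% higher of all analysed genes in the co-depletion and 16.7% and 4% in the FoxO3 depletion. With the GC subtraction these shares were 5.57% lower and 4.96% higher in the co-depletion, and 8.74% and 5.94% in the FoxO3 depletion. Of 13 analysed genes of peroxisomal beta-oxidation, which shortens very long chains, 1 was called lower in the co-depletion (HSD17B4, at -0.59, named after its value was seen) and 3 in the FoxO3 depletion (ABCD3, ACOX2 and CROT), with 0 higher. HSD17B4 was also counted above with the 17-beta-hydroxysteroid dehydrogenases, so its call is the same one. ABCD3, a peroxisomal acyl-CoA transporter, had 28.9 FPKM in the co-depletion, 24.8 in the FoxO3 depletion and 42.8 in the control. ACOX2, an oxidase of branched chains, had 5.20 FPKM in the co-depletion, 4.65 in the FoxO3 depletion and 8.21 in the control. CROT, which makes carnitine esters, had 5.04 FPKM in the co-depletion, 4.44 in the FoxO3 depletion and 7.64 in the control. After the GC subtraction ACOX2 was called lower in both, at -0.60 in the co-depletion and -0.73 in the FoxO3 depletion, and the other named genes in neither. Of 17 analysed genes of mitochondrial beta-oxidation 1 was called lower and 1 higher in each comparison with control. CPT1A, which admits chains to the mitochondrion, had 69.0 FPKM in the co-depletion, 68.0 in the FoxO3 depletion and 42.7 in the control. ACADM, the medium-chain dehydrogenase, ran the other way, with 25.0 FPKM in the co-depletion, 22.3 in the FoxO3 depletion and 39.4 in the control. SLC25A20, the carnitine carrier, had 10.1 FPKM in the co-depletion, 10.2 in the FoxO3 depletion and 6.93 in the control. ACADM was not called after the GC subtraction, and CPT1A was called in the co-depletion only, at 0.63. CPT2, named after its values were seen, was then called higher in the FoxO3 depletion, at 0.64.

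Of 15 analysed regulators of lipid synthesis 2 were called lower and 0 higher in the co-depletion, and 2 lower and 1 higher in the FoxO3 depletion, where MLX was the higher one. Once GC content was subtracted, 1, RXRA, was called lower in each and 0 higher. With that subtraction 5.57% of all analysed genes were lower and 4.96% higher in the co-depletion, and 8.74% and 5.94% in the FoxO3 depletion. RXRA, a nuclear receptor that pairs with LXR and PPAR, had 13.7 FPKM in the co-depletion, 11.7 in the FoxO3 depletion and 28.0 in the control, and was called lower with and without the GC subtraction. PPARGC1A had 1.75 FPKM in the co-depletion, 2.26 in the FoxO3 depletion and 3.997 in the control. MLX, a partner of the carbohydrate-response factors, had 58.1 FPKM in the co-depletion, 63.4 in the FoxO3 depletion and 41.5 in the control. With GC content subtracted, PPARGC1A came to -0.56 in the co-depletion and -0.31 in the FoxO3 depletion, and MLX to 0.53 in the FoxO3 depletion. Of 14 analysed genes of phosphatidic acid and triacylglycerol synthesis 1 was called lower in the co-depletion (LPIN1) and 2 in the FoxO3 depletion (LPIN1 and GPAM). The phosphatidate phosphatase LPIN1 had 37.1 FPKM in the co-depletion, 39.5 in the FoxO3 depletion and 63.6 in the control. It stayed past 1.5-fold after the GC subtraction, at -0.77 in the co-depletion and -0.72 in the FoxO3 depletion. LPIN2, of the same enzyme family, had 51.5 FPKM in the co-depletion, 53.6 in the FoxO3 depletion and 76.2 in the control. The acyltransferase GPAM had 4.45 FPKM in the co-depletion, 3.72 in the FoxO3 depletion and 6.86 in the control, and lost its call after the GC subtraction, at -0.42 in the FoxO3 depletion. Of 11 analysed genes listed for NADPH supply in any part of the cell, 0 were called. TKT, of the pentose phosphate pathway, had 231 FPKM in the co-depletion, 236 in the FoxO3 depletion and 166 in the control. The malic enzyme ME1 had 12.8 FPKM in the co-depletion, 13.7 in the FoxO3 depletion and 9.29 in the control. The transhydrogenase NNT had 45.1 FPKM in the co-depletion, 52.8 in the FoxO3 depletion and 60.9 in the control. After the GC subtraction ME1 was called higher in both, at 0.78 in the co-depletion and 0.95 in the FoxO3 depletion. Of 10 analysed genes of mitochondrial fatty acid synthesis 2, HSD17B8 and CBR4, were called lower in the co-depletion and 0 in the FoxO3 depletion. Both are also among the genes listed above with the 17-beta-hydroxysteroid dehydrogenases, so these are the same calls. After the GC subtraction HSD17B8 was at -0.71 in the co-depletion, still called, and CBR4 at -0.13, not called. LIPT1, a lipoyl transferase of the mitochondrial synthesis list, had 1.40 FPKM in the co-depletion, 1.87 in the FoxO3 depletion and 2.57 in the control.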
